A study of Capra hircus with 6 samples.

Results

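Circular RNAs (circRNAs) of 4 host genes that handle steroids, sterols or other lipids were described in pre-ovulatory follicles of goats (Capra hircus): NR5A2, SRD5A1, OSBPL8 and STARD7. Every deposited entry with the gene identifier ‘102174500’ (NR5A2), ‘102172667’ (SRD5A1), ‘102185062’ (OSBPL8) or ‘102176131’ (STARD7) was taken, and a circRNA was defined by its chromosome, start, end and strand. This gave 14 circRNAs of 13950 in all, in 31 entries. Ovarian follicles came from 3 Boer goats and 3 Macheng black goats, 1 library per animal. All 6 animals, of both breeds, had normal estrous cycles and were given PMSG (pregnant mare serum gonadotropin, 1000 IU), which makes follicles grow, followed by 500 IU of the ovulation trigger hCG, human chorionic gonadotropin. There was no untreated group. The animal number in the sample code differed from that in the title in 4 of the 6 libraries, while the breed was the same in both, and the titles were used.

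A circRNA arises by back-splicing, in which the downstream end of an exon is joined to the upstream end of the same or an earlier exon, so that a read across the back-splice junction counts the circle and not the linear mRNA. The preovulatory follicle makes estradiol and then, after the gonadotropin surge, progesterone, from cholesterol that must reach the mitochondria. NR5A2 (also LRH-1) is an orphan nuclear receptor of granulosa cells that activates genes of steroid synthesis and is needed for ovulation in mice. SRD5A1 is a steroid reductase that turns testosterone into dihydrotestosterone and also acts on progesterone. OSBPL8 (ORP8) is an oxysterol-binding-protein-related protein of the endoplasmic reticulum that exchanges phosphatidylserine for a phosphoinositide at contacts with the plasma membrane. STARD7 carries a START domain, the fold that also binds cholesterol in STAR, and brings phosphatidylcholine to mitochondria. OSBPL8 and STARD7 are thus known mainly for phospholipids, although both belong to families named for sterol binding.

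The 6 libraries held between 23480 and 74796 back-splice reads, with Boer 1 the deepest and Macheng black 3 the shallowest. The 4 hosts took 178 of the 252857 reads, or 0.0704%. OSBPL8 had 69 reads, STARD7 66, NR5A2 33 and SRD5A1 10. There were 782 usable host genes, meaning genes that were the only usable host of at least 1 circRNA, with a median of 10 reads. Among them 83.4% had fewer reads than OSBPL8, 82.9% fewer than STARD7, 71.6% fewer than NR5A2 and 48.2% fewer than SRD5A1. The smallest listed count was 2, so absence from a file means at most 1 read or a circle that was not found, and it was counted as 0. None of 6 granulosa and 2 theca marker genes (FSHR, LHCGR, CYP19A1, AMH, INHA, FOXL2, CYP17A1 and INSL3) was a usable circRNA host, so these files give no check of the tissue by its markers.

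The plus-strand gene NR5A2 and the minus-strand gene OSBPL8 each had 4 circRNAs, and the minus-strand genes SRD5A1 and STARD7 each had 3. No other circRNA on either strand overlapped the stretches covered by these 14. Each of the 14 shared at least 1 end with another circle of its host. All 3 circRNAs of STARD7 had their upstream end at position 2491245 of chromosome 11, and all 3 of SRD5A1 had theirs at position 65972575 of chromosome 20. In NR5A2, 3 of the 4 circRNAs began at position 76448498 of chromosome 16, and 2 ended at 76514754. In OSBPL8, on chromosome 5, 2 had their upstream end at 5435464, and another 2 had their downstream end at 5486702. All positions follow the authors' files and count from 1; which genome build they refer to is not given in the sources used here.

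Of the 14 circRNAs, 8 had a listed exon and 6 had introns only. In the introns-only class were all 4 circRNAs of OSBPL8 and 2 of NR5A2. The listed introns did not reach the circle ends, however. Between consecutive introns, and between the last intron and the circle's end, the part lists left short stretches that were named neither exon nor intron. There were 21 distinct short stretches of this kind over the 4 genes, from 37 to 276 bases long, and 7 of the 14 circles both began and ended in an unlisted stretch. The introns-only OSBPL8 circRNA from 5486702 to 5511861, for example, had unlisted stretches of 138, 37, 39 and 109 bases around its 3 introns. An introns-only entry here was therefore a circle whose ends lay outside the listed introns. What the unlisted stretches are was not tested, since no annotation of this build was used.

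The deposited spliced length counts introns as well as exons. For the STARD7 circRNA from 2487982 to 2491245 it was 2838 bases, whereas removing the listed introns from the span left 635 bases. In the longer STARD7 circle from 2482725 to 2491245, the deposited value was 8010 bases and 720 bases lay outside the introns. The NR5A2 circle from 76508952 to 76514754 had 268 bases outside its single intron, against a deposited 5535 bases, and the OSBPL8 circle from 5486702 to 5511861 had 323 against 24837. Part lists were not always the same between libraries either. The SRD5A1 circRNA from 65959588 to 65972575 had a deposited spliced length of 12859 in one library and 12692 in another, the second list leaving out an exon. Among 5681 circRNAs found in at least 2 libraries, 203 had lists that differed.

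**Figure D1:**
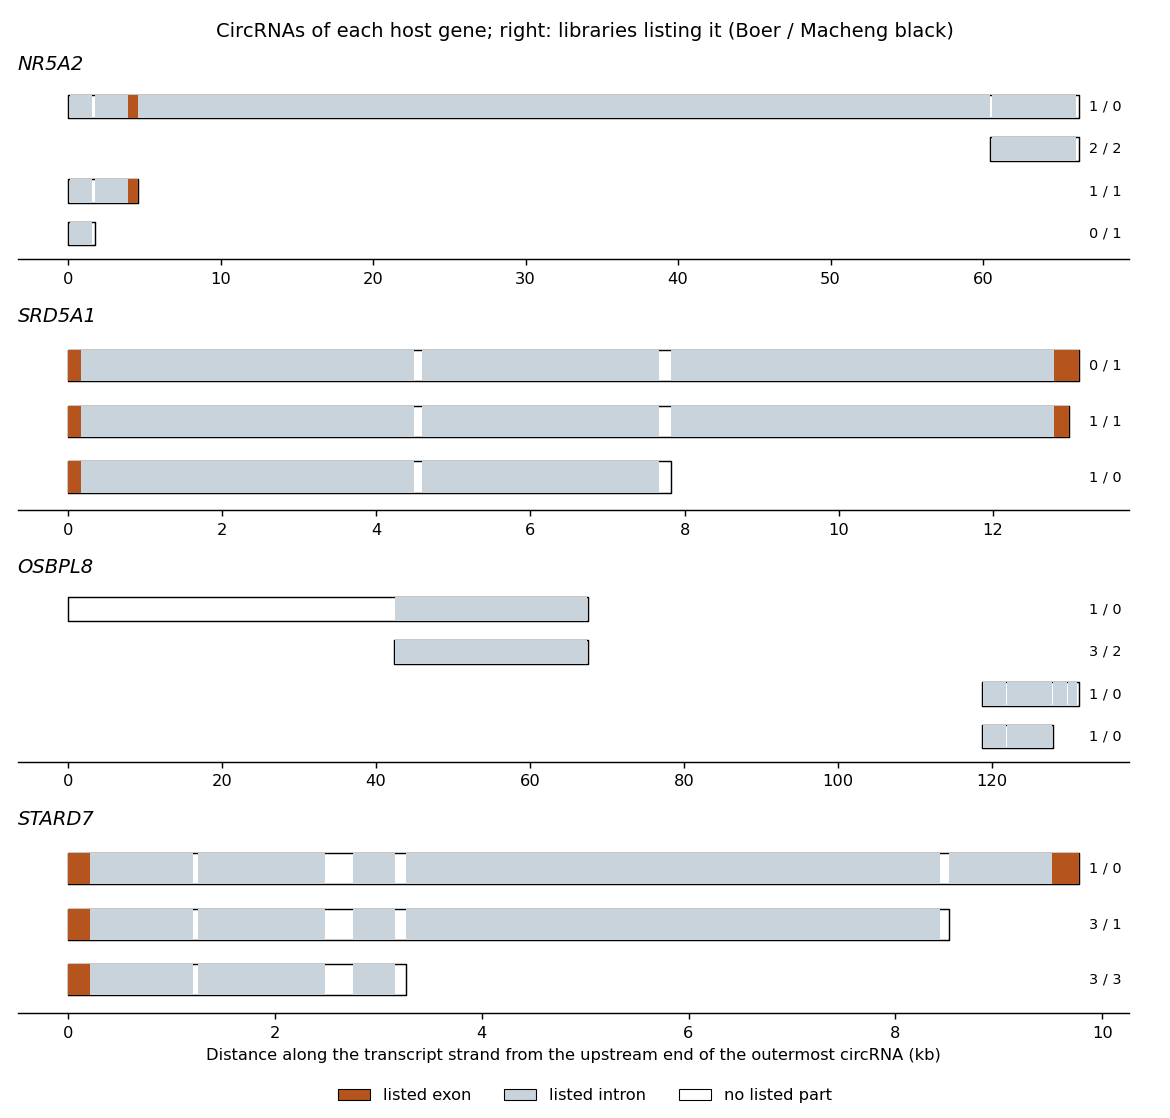
CircRNAs of the 4 host genes drawn to scale, one bar each, along the transcript strand in kb from the upstream end of the outermost circle; orange is listed exon, grey listed intron and white without a listed part, and the 2 numbers at the right are the Boer and Macheng black libraries that list the circle. The 3 STARD7 and 3 SRD5A1 circles share their left end, and the white stretch of the longest OSBPL8 circle covers 42457 bases.

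Detection was sparse, as for circRNAs of usable hosts in general. Of the 14 circRNAs, 8 were listed in 1 library (57.1%, against 55.8% of the 2043 circRNAs with a usable host), and the STARD7 circle from 2487982 to 2491245 was listed in all 6. Boer libraries listed 12 of the 14 and Macheng black libraries 8, with 6 in both breeds. Of the circles listed in Boer alone, all but the longest NR5A2 circle came from Boer 1, the deepest library. Over the whole series, the libraries listed 7005, 3538 and 5155 circRNAs in Boer and 4410, 5415 and 3347 in Macheng black. The matching split of all circRNAs by breed is not given here. Of the 14, 9, 4 and 6 circRNAs were listed in the Boer animals and 4, 5 and 3 in the Macheng black animals. The means were 6.33 ± 2.52 for Boer animals and 4.0 ± 1.0 for Macheng black animals (n = 3 per breed, SD), and the groups overlapped (two-sided exact permutation p = 0.3). With 3 animals against 3, the smallest p this test can give is 0.1. After thinning every library to 23480 reads the means were 4.45 ± 0.409 for Boer animals and 2.77 ± 0.448 for Macheng black animals (n = 3 per breed, SD). The groups no longer overlapped, at that smallest possible p (two-sided exact permutation p = 0.1). Each thinned value is an average of 20 draws, so the SD leaves out most of the variation between draws. No thinned count over all circRNAs is given for comparison.

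As a share of all back-splice reads, the 4 hosts together took 0.0856%, 0.0723% and 0.108% in the Boer libraries, against 0.0513%, 0.0488% and 0.0298% in the Macheng black libraries. STARD7 supplied 56 of the 127 Boer reads and 10 of the 51 Macheng black reads. Without STARD7 the other 3 hosts had 33, 8 and 30 reads in Boer and 17, 19 and 5 in Macheng black. As shares these were 0.0441%, 0.0321% and 0.0722% in Boer and 0.0436%, 0.0387% and 0.0213% in Macheng black, so that the breeds overlapped. These sums describe a chosen set of genes and were not tested.

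Between the breeds, none of the 4 host genes passed the test on their summed back-splice reads (edgeR quasi-likelihood test, Benjamini-Hochberg adjusted p under 0.05 over all 433 tested host genes). In the whole comparison 1.15% of the host genes passed. At an unadjusted p under 0.05 there was 1 of the 4, STARD7, against 6.93% of all tested host genes, and DESeq2 also passed none of them. Among single circRNAs, 4 of the 14 had at least 2 reads in at least 3 libraries and entered the test, and none passed, where 0.35% of 3712 tested circRNAs did. The other 10 were too sparse to test.

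**Figure D2:**
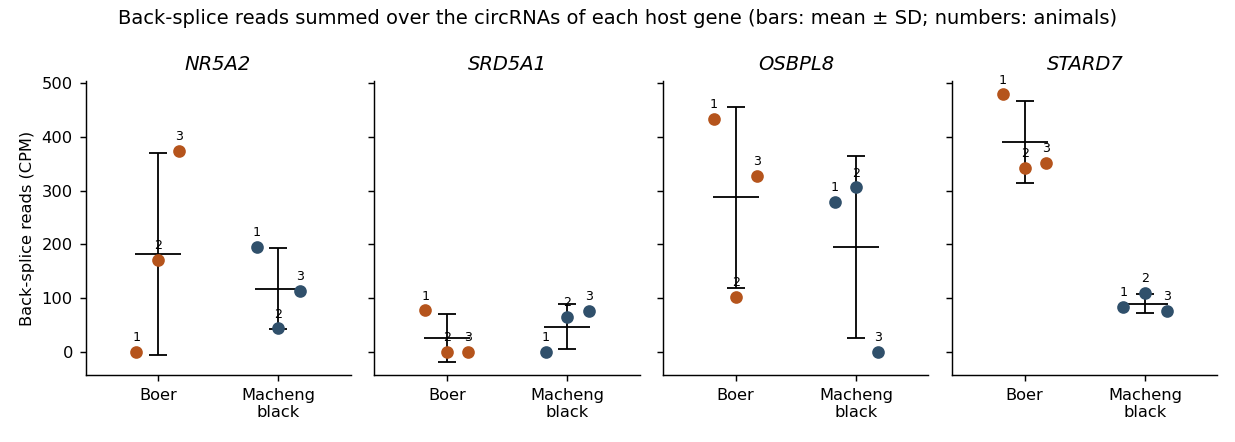
Back-splice reads summed over the circRNAs of each gene, as CPM (counts scaled to a common size) of all listed back-splice reads after TMM scaling, for 3 Boer and 3 Macheng black libraries; bars give the mean and SD, and the numbers beside the points name the animal. STARD7 lies between 342 and 479 CPM in Boer and between 76.1 and 109 CPM in Macheng black, while the breeds overlap for the other 3 genes.

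NR5A2, the nuclear receptor, was not listed in Boer 1 at all, although this was the library with the most reads. Its circRNAs had 5 and 16 reads in Boer 2 and 3, and 7, 2 and 3 reads in Macheng black 1, 2 and 3. Boer 3 was highest and Boer 1 lowest, so that Boer spanned the whole Macheng black range. The means were 182 ± 187 CPM (Boer) against 118 ± 75.9 CPM (Macheng black; n = 3 per breed, SD), with a log2 fold change of 0.63 ± 0.94 (SE; edgeR adjusted p = 0.967). Without Boer 3 the log2 fold change turned to -0.55.

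The NR5A2 circRNA found most widely ran from 76508952 to 76514754 on chromosome 16, with 17 of the gene's 33 reads. It had 5 and 4 reads in Boer 2 and 3, and 5 and 3 reads in Macheng black 1 and 3, and was not listed in Boer 1 or Macheng black 2. Its log2 fold change was 0.016 ± 1.62 (SE; edgeR adjusted p = 1.0), the widest error of the 4 tested circRNAs, and the sign turned in several alternatives. Another 3 circles started at 76448498. The circle to 76453088, which ends with a listed exon of 647 bases, had 4 reads in Boer 3 and 2 in Macheng black 1. The shortest, to 76450231, had 2 reads in Macheng black 2 and appeared nowhere else. Boer 3 was alone in listing the circle from 76448498 to 76514754, with 8 reads. That circle joins the upstream end of these shorter circles to the downstream end of the widely found circle and spans 66257 bases.

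SRD5A1, the steroid reductase, was the sparsest host. It had 5 reads in Boer 1 and none in Boer 2 or 3, against 0, 3 and 2 reads in Macheng black 1, 2 and 3. The groups overlapped, at 25.8 ± 44.6 CPM (Boer) against 47.2 ± 41.2 CPM (Macheng black; n = 3 per breed, SD; edgeR log2 ratio -0.68 ± 1.80 by SE, adjusted p = 0.967). Without Boer 1, the one Boer library with SRD5A1 reads, the log2 ratio was -3.83, a fitted value with the Boer libraries at 0 that is no bound, and without Boer 3 it was -0.22. In these libraries 1 read was worth between 15.5 and 38.1 CPM. The circRNA from 65959588 to 65972575 had 3 reads in Boer 1 and 2 in Macheng black 3, and the one starting at 65959464, which has the same upstream end and takes in the whole last listed exon, had 3 reads in Macheng black 2. The shortest, from 65964755, had 2 reads in Boer 1.

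OSBPL8, the phospholipid exchanger, was dominated by 1 circle. The circRNA from 5486702 to 5511861 on chromosome 5 held 73.9% of the gene's reads, with 10, 3 and 14 reads in Boer 1, 2 and 3. In Macheng black it had 10 and 14 reads in animals 1 and 2 and was not listed in animal 3. The highest counts of the breeds were equal and the CPM means nearly so, at 195 ± 118 for Boer against 195 ± 169 for Macheng black (n = 3 per breed, SD; edgeR log2 ratio -0.059 ± 0.74 by SE, adjusted p = 1.0).

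Boer 1 alone listed the other 3 OSBPL8 circRNAs. The circle from 5486702 to 5554209 had 13 reads there, more than the 10 of the common circle with the same downstream end. It spans 67508 bases, of which 42457 at the upstream end had no listed part. The remaining pair, from 5422916 and from 5426235 to 5435464, had 2 and 3 reads and lay in a separate, downstream stretch of the gene with up to 6 listed introns. Summed over all 4 circles, OSBPL8 had 28, 3 and 14 reads in Boer and 10, 14 and 0 reads in Macheng black. The gene stood at 288 ± 169 CPM (Boer) against 195 ± 169 CPM (Macheng black), with overlapping groups (n = 3 per breed, SD; edgeR log2 ratio 0.49 ± 0.60 by SE, adjusted p = 0.967). Without Macheng black 3 this fell to 0.018.

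STARD7, the mitochondrial phosphatidylcholine carrier, was the host in which the breeds lay farthest apart. It had 31, 10 and 15 reads in Boer 1, 2 and 3, and 3, 5 and 2 reads in Macheng black 1, 2 and 3. At 479, 342 and 351 CPM, every Boer library was above every Macheng black library, at 83.7, 109 and 76.1 CPM. Of all tested host genes, 6.7% had their lowest Boer library above their highest Macheng black one. The means were 391 ± 76.7 CPM (Boer) against 89.7 ± 17.4 CPM (Macheng black), a ratio of 4.36 (n = 3 per breed, SD). The edgeR log2 fold change was 2.07 ± 0.67 (SE), with an unadjusted p of 0.00210, the ninth smallest of the tested host genes, and an adjusted p of 0.101. It thus did not pass. Over 13 alternatives the log2 fold change stayed between 1.97 and 2.23 and the adjusted p between 0.0887 and 0.579.

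Most of this difference in STARD7 came from the middle circle, from 2482725 to 2491245, with 57.6% of the gene's reads. It had 17, 5 and 13 reads in Boer, and 3 reads in Macheng black 2 with none listed in Macheng black 1 or 3. At 263, 171 and 304 CPM the Boer libraries did not overlap the Macheng black libraries, at 0, 65.6 and 0 CPM, a pattern shown by 6.92% of the tested circRNAs in this direction. With 35 reads in Boer and 3 in Macheng black, the ratio of pooled reads per TMM-scaled library total of each breed was 9.21. Its exact 95% interval, from 2.90 to 46.8, covers counting error only and leaves out the spread between animals. The same ratio was 2.14 (0.862 to 6.03) for the STARD7 circle from 2487982 and 0.888 (0.493 to 1.61) for the OSBPL8 circle from 5486702 to 5511861. All other member circles listed in both breeds also had intervals that included equal levels. For the middle STARD7 circle the edgeR log2 fold change was 3.11 ± 1.10 (SE; adjusted p = 0.659). Without Macheng black 2, the one Macheng black library that lists this circle, it was 6.34 (adjusted p = 0.193), a fitted value against libraries at 0 that is no bound.

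The shorter STARD7 circle from 2487982, with the same upstream end, was listed in all 6 libraries. It had 12, 5 and 2 reads in Boer and 3, 2 and 2 reads in Macheng black, and its groups overlapped at 134 ± 76.3 CPM (Boer) against 67.8 ± 21.2 CPM (Macheng black; n = 3 per breed, SD; edgeR log2 ratio 0.98 ± 1.20 by SE, adjusted p = 1.0). In Boer 3 the middle circle had 13 reads to 2 of the shorter one. Boer 1 had 17 to 12, Boer 2 had 5 of each and Macheng black 2 had 3 to 2, while Macheng black 1 and 3 listed only the shorter circle. Whether the breeds divided STARD7 reads differently between these circles was tested with diffSpliceDGE of edgeR, and no difference was detected (Simes adjusted p = 0.999 over 121 host genes). The longest circle, from 2481475, which reaches into the last listed exon, had 2 reads in Boer 1.

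**Figure D3:**
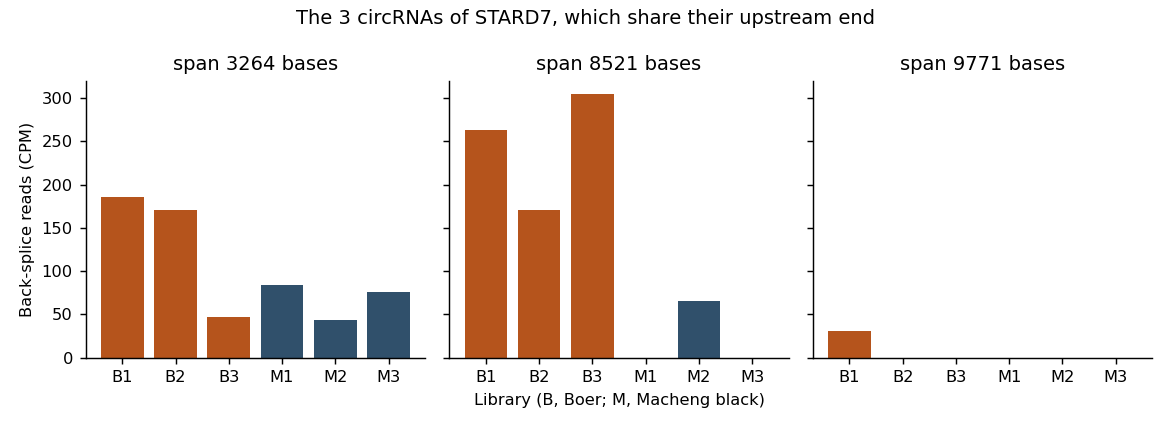
Back-splice reads of the 3 STARD7 circRNAs in CPM, one bar per library, with Boer animals (B1 to B3) left of Macheng black animals (M1 to M3); a missing bar is a library that does not list the circle. The circle of 8521 bases is at 171 to 304 CPM in Boer and at 0, 65.6 and 0 CPM in Macheng black.

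Each entry also gives a number of non-junction reads, which the files do not define further. In all 1708 cases in which a circRNA lay within another of the same usable host and library, the outer circle had at least as many non-junction reads as the inner one, 11 of these cases in the 4 hosts. Among the 4 hosts the values ranged from 62 for an SRD5A1 circle in Boer 1 to 10573 for the longest NR5A2 circle in Boer 3. In that library the inner NR5A2 circles had 1626 and 403 non-junction reads against the 10573 of the circle that spans both. Per kb of its own span, the inner circle to 76453088, with its listed exon, had 354 non-junction reads, and the circle from 76508952 had 69.4. In OSBPL8 the circles to 5511861 and 5554209 both had 1219 non-junction reads in Boer 1, although the longer one covers 42348 more bases, none of them in a listed part.

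**Figure D4:**
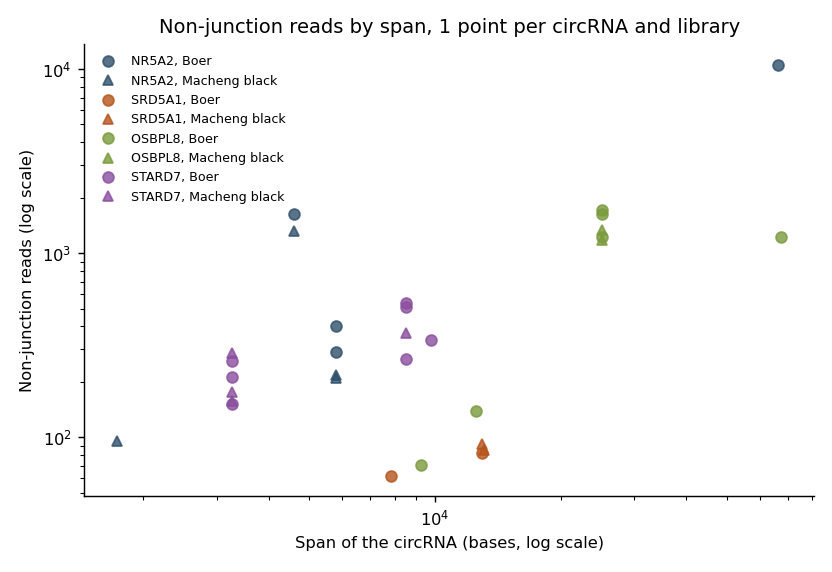
Non-junction reads against the span of the circle, both on log scales, with 1 point per circRNA and library, circles for Boer and triangles for Macheng black. The longest NR5A2 circle is highest at 10573 reads, and the OSBPL8 circle of 67508 bases has the 1219 reads of the circle of 25160 bases in the same library.

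For the STARD7 circle found in every library, the non-junction reads were 152, 212 and 259 in Boer and 157, 177 and 287 in Macheng black. Scaled by the median ratio over 1117 circRNAs listed in all libraries, they were 173, 200 and 266 in Boer and 157, 183 and 247 in Macheng black, with overlapping groups. The back-splice share, defined as 2 × the junction reads over the sum of 2 × the junction reads and the non-junction reads, was highest for this circle in Boer 1 at 13.6% (exact 95% interval 7.39% to 22.1%). In Macheng black 3 it was 1.37% (0.168% to 4.84%). Summed over the STARD7 circles of a library, the share had a mean of 4.66% ± 2.61 for Boer against 2.29% ± 1.23 for Macheng black (n = 3 per breed, SD), with overlapping groups (two-sided exact permutation p = 0.2, adjusted p = 0.977 over 194 host genes listed in all libraries). Without Boer 1 the difference of 2.37 points dropped to 0.901. Such sums may count the non-junction reads of nested circles more than once.

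Over all 31 entries the back-splice share had a median of 2.33%, against 4.95% over the 4499 entries of usable hosts, whose quartiles were 1.78% and 15.4%. The 14 circRNAs had a median span of 9500.5 bases, against 6520 bases over all circRNAs of usable hosts, and the part of span in these shares was not tested. The lowest was 0.151% (exact 95% interval 0.0653% to 0.297%), for the longest NR5A2 circle. In the OSBPL8 circle from 5486702 to 5511861 it was 1.61%, 0.364% and 1.61% in Boer 1, 2 and 3 (exact 95% intervals 0.779% to 2.94%, 0.0753% to 1.06% and 0.884% to 2.68%), and 1.47% and 2.33% in Macheng black 1 and 2 (0.707% to 2.67% and 1.28% to 3.86%). The SRD5A1 entries lay between 4.17% and 6.82%, from 2 or 3 reads each.

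Lists of genes for steroid synthesis and metabolism, nuclear receptors of the ovary, START and oxysterol-binding proteins, and cholesterol metabolism held 134 genes in all. Of these, 9 were usable circRNA hosts, the 4 genes above among them. None of the 6 that could be tested, again with the 4 genes above among them, passed (edgeR quasi-likelihood test; 1 at an unadjusted p under 0.05, which was STARD7). The lists were chosen with earlier results of these data known, so they are no independent view of the 4 genes. In the START and oxysterol-binding list, 4 of 29 genes were hosts and 3 were tested, namely OSBPL8, STARD7 and OSBP. All 3 had a positive log2 fold change, but OSBPL8 and STARD7 belong to the chosen set and OSBP had only 13 reads in all. Their median of 2.03 is the value of OSBP. The median over all tested host genes was 0.089, also positive. Each of the other lists had 1 tested gene, given with its value here. OSBP, the oxysterol-binding protein itself, had 6, 2 and 3 reads in Boer and 0, 2 and 0 reads in Macheng black (edgeR log2 ratio 2.03 ± 1.86 by SE, adjusted p = 0.967). All its Boer libraries were above its Macheng black libraries in CPM, as for 6.7% of all tested host genes. Boer 2 and Macheng black 2 had 2 reads each, however, and differed through scaling alone, with 1 read worth 34.2 and 21.9 CPM. OSBPL10, another member of its family, had 3, 0 and 2 reads in Boer, was not listed in Macheng black and was not tested.

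In the cholesterol list, 2 of 48 genes were hosts. MBTPS2, a protease that releases the SREBP transcription factors, was the most abundant host of all the lists with 293 reads. It stood at 1210 ± 444 CPM (Boer) against 1119 ± 271 CPM (Macheng black; n = 3 per breed, SD; edgeR log2 ratio 0.11 ± 0.35 by SE, adjusted p = 0.967). The nuclear receptor list gave 2 hosts of 26, NR5A2 and the coactivator NCOA3, which had 2 reads in Boer 1 and 3 in Macheng black 3. SRD5A1 was the single host among 31 genes of steroid synthesis and metabolism.

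Across the 6 libraries, the host genes whose log2 CPM ran most like that of a member were found by Pearson correlation over 432 other tested hosts, as a description without a test. Libraries in which both genes of a pair are at 0 weigh heavily in such values. For STARD7 they were TMEM87B (r = 0.986), with 12, 9 and 3 reads in Boer and none in Macheng black, and SNX30 (r = 0.985), with 5, 4 and 2 reads in Boer and none in Macheng black. STARD7 had reads in all 6 libraries, and in its pairs the step between the breeds weighs heavily. Within Boer, STARD7 had 31, 10 and 15 reads. For OSBPL8 the closest hosts were TTC7B (r = 0.999) and GMDS (r = 0.995), both at 0 in Macheng black 3 like OSBPL8. NR5A2 ran closest to GPT (r = 0.982) and TMEM131 (r = 0.971), both at 0 in Boer 1, and SRD5A1 to FGFR1OP (r = 0.9996) and FKBP15 (r = 0.999), both at 0 in the same 3 libraries as SRD5A1.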

How the data were processed

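Total RNA of goat ovarian follicles was isolated with TRIzol, depleted of ribosomal RNA and sequenced, per the labels' protocols. Of tools, the submitters' processing notes name TopHat2 and Bowtie2 2.0.6. Which program called the circRNAs, and on which build, is not given in the sources used here. As count data the authors deposited 1 file per library with whole-number counts of back-splice junction reads and of non-junction reads, not normalized, per the file headers and values. The spliced and full lengths in bases are other deposited values. The members and gene lists were chosen with earlier results of these data known.

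Starts count from 0 in the files, and 1 was added. Identifiers on several chromosomes or with a part over 1 Mb were set aside (29 of 829). A circRNA was assigned to a host only where exactly 1 usable identifier remained for it over all libraries, which gave the 782 usable hosts. Symbols, and nothing else, came from RefSeq's gene table for ARS1.2; all 4 members and 753 of 782 usable hosts matched.

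Tests covered circRNAs, and host genes on summed reads, that had 2 or more reads in 3 or more libraries. They used edgeR 4.0.16 in R 4.3.3 (quasi-likelihood, TMM, Benjamini-Hochberg over all tested, no block). Each log2 fold change (log2 ratio) sets Boer over Macheng black, for host genes on a scale of host reads; its SE was its size over the root of F. CPM use all listed back-splice reads after TMM for circRNAs and hosts, except in the correlations, where host CPM use host reads after TMM. Alternatives used DESeq2 1.42.0, other scalings, filters, a block and left-out libraries. Permutation tests were exact, and single-library shares carry exact (Clopper-Pearson) 95% intervals, for counting error only. Thinning used 20 draws. Named genes were the 4 hosts and their circRNAs, the 2 most correlated hosts of each on log2(CPM + 1), and listed genes that were hosts, of which 1 is not reported here. The tests were checked on simulated counts. For usage within host genes these had higher means and less spread than the real counts, and a large change. That check therefore gives no measure of what the usage test can find at the real depth.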

Additional observations from a re-analysis of the deposited data

How the results depend on the processing

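Neither the 4 host genes nor their 4 tested circRNAs passed the test in any alternative. STARD7 kept a positive log2 fold change in all 13 alternatives (1.97 to 2.23 with a library left out). The host log2 fold changes with a library left out ranged from -0.55 to 1.30 for NR5A2, from 0.018 to 0.92 for OSBPL8 and from -3.83 to -0.22 for SRD5A1, which left the test at 5 reads in 3 libraries. NR5A2 turned without Boer 3 (-0.55). The NR5A2 circRNA from 76508952 ranged from -0.86 to 0.67 with a library left out and was -0.18 with the replicate block. That of OSBPL8 from 5486702 to 5511861 ranged from -0.58 to 0.44, and was 0.017 without TMM and 0.052 with the replicate block. The NR5A2 circle and the shorter STARD7 circle were not tested at 5 reads in 3 libraries. The STARD7 circRNAs from 2482725 and from 2487982 ranged from 2.59 to 6.34 and from 0.64 to 1.41. The difference in STARD7 back-splice share stayed between 0.901 and 3.4 points, and that in listed circRNAs per library between 1.0 and 3.5. The cause of these changes was not tested.

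Over all features, 13 circRNAs and 5 host genes passed. The circRNA count was 8 with DESeq2, 35 with no filter, 2 at 5 reads in 3 libraries and 1 to 21 with a library left out (4 without Boer 1, 1 without Boer 2, 21 without Macheng black 1). The host count was 1 with DESeq2, 3 with no filter, 0 at 5 reads in 3 libraries, 0 with the replicate block, 2 with all identifiers, and 1 to 4 with a library left out. For usage within host genes diffSpliceDGE made 0 calls, with 3 of 121 genes at an unadjusted p under 0.05, and 0 in its 8 alternatives. The animal numbers share only a number: same-numbered libraries had deviations correlated at 0.00043, -0.047 and 0.023. Depth was low, with 10 of the 14 circRNAs too sparse to test, and its part in the missing calls was not tested.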
